A study of Mus musculus with 20 samples.

Results

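The RNA levels of 8 genes that are widely used as neutrophil genes were followed in the mouse abdominal aorta: S100a8, S100a9, Csf3r, Cxcr2, Retnlg, Clec4d, Clec4e and Trem1. They were chosen by name, with earlier results of these data known. All 8 were found among the 43422 Ensembl genes measured in each of 20 mice. The mice were C57BL/6 by the labels (C57Bl/6NCrl in the methods of the study) and either WT or Plod1-/-, which lack lysyl hydroxylase 1 (LH1), the enzyme that hydroxylates lysine residues of collagen. They received saline or angiotensin II (Ang II) at 1000 ng/kg per minute from an osmotic pump under the skin, and the aorta was taken on day 14. The labels give an age of 6 months, and the methods of the study a younger age at the start of treatment. There were 4 groups of 5 mice, WT or Plod1-/- under saline and WT or Plod1-/- under Ang II. No cell type-specific driver is named for the deletion, and the whole abdominal aorta was sequenced in bulk, so fewer cells of a type and less RNA per cell cannot be told apart.

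Neutrophils are short-lived white blood cells that leave the blood at sites of injury, follow chemokine gradients and release granule enzymes and reactive oxygen. S100a8 and S100a9 encode the subunits of calprotectin, a calcium-binding protein that fills their cytoplasm. Csf3r encodes the receptor of granulocyte colony-stimulating factor, Cxcr2 the receptor of the CXC chemokines that attract neutrophils, and Retnlg a secreted resistin-like protein of mouse neutrophils. Clec4d, Clec4e and Trem1 encode surface receptors that signal through adaptor proteins and start inflammatory responses, and monocytes and macrophages carry them as well.

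Expression was given as FPKM, fragment counts scaled by transcript length and library size. Levels of different genes can be compared only roughly here. Among smooth muscle markers, Tagln averaged 9.35 FPKM and Acta2 14040 FPKM in saline-treated WT mice. Whether single genes were undercounted was not tested. The read depth of the libraries is unknown, since FPKM keep no counts, but the relative depth estimated from the lowest values lay between 0.903 and 1.04. Plod1 itself was between 22.8 and 29.7 FPKM in WT mice and at most 0.0415 FPKM in Plod1-/- mice, as the genotype labels say. The study used male mice, but replicate 5 of the saline-treated and replicate 1 of the Ang II-treated Plod1-/- group held Xist RNA (15.1 and 7.93 FPKM, against at most 0.0328 FPKM elsewhere). Results are therefore also given without these 2 libraries.

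The label of the genes was checked against other genes that mark neutrophils. Ly6g, the surface antigen by which mouse neutrophils are usually sorted, was listed at 0 in 11 of the 20 libraries and did not exceed 0.707 FPKM in any. It was between 0.143 and 0.28 FPKM in the Ang II-treated Plod1-/- mice, where all 8 genes were highest by the group mean. Elsewhere Ly6g was above 0 in Ang II-treated WT replicates 1 and 5 (0.391 and 0.215 FPKM) and saline-treated WT replicate 5 (0.707 FPKM). These were also the highest WT mice for S100a8 and S100a9. The remaining library above 0 was saline-treated Plod1-/- replicate 2 (0.0357 FPKM). The 12 granule genes were split in the Ang II-treated Plod1-/- group. Mpo, Ctsg, Ltf, Camp and Ngp did not exceed 0.793 FPKM in any of its mice, and Elane and Padi4 did not exceed 1.61 FPKM. Prtn3 was 0.466 to 11.1 FPKM, Mmp8 0.936 to 12.4 FPKM, Mmp9 4.65 to 72.4 FPKM, Lcn2 12.4 to 71.1 FPKM and Hp 869.1 to 6198 FPKM. Ly6g was thus low and the granule genes were split. The cell of origin was not tested, so the 8 genes are described below by name.

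In Plod1-/- mice S100a8 and S100a9 were near 1 FPKM under saline and at least 41.0 FPKM under Ang II in every mouse. S100a8 was 0.404, 1.02, 0.878, 0.505 and 0.822 FPKM in saline-treated Plod1-/- replicates 1 to 5. It was 41.0, 59.9, 209.4, 191.1 and 73.6 FPKM in Ang II-treated Plod1-/- replicates 1 to 5. The lowest Ang II-treated mouse therefore lay far above the highest saline-treated mouse. S100a9 was 1.41, 1.10, 1.24, 0.403 and 1.03 FPKM under saline and 91.9, 75.8, 416.3, 297.1 and 171.7 FPKM under Ang II in the same order. Replicates 3 and 4 were highest for both genes, and the groups did not overlap.

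In WT mice the same pair was low in most animals and high in single ones. S100a8 was 1.31, 1.01, 0.956, 1.13 and 15.1 FPKM in saline-treated WT replicates 1 to 5, and 57.4, 2.96, 1.77, 1.71 and 13.6 FPKM in Ang II-treated WT replicates 1 to 5. S100a9 was 3.12, 1.42, 2.47, 2.07 and 29.9 FPKM under saline, and 98.6, 6.12, 3.31, 4.21 and 30.5 FPKM under Ang II. Replicate 5 of the saline-treated WT group stood apart from the other 4 mice of its group, and replicate 1 of the Ang II-treated WT group reached the range of the Ang II-treated Plod1-/- mice for both genes. The 2 WT groups overlapped.

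The proportion of S100a9 to S100a8 varied most where both were low. S100a9 was 0.798 to 3.49 times S100a8 in the saline-treated Plod1-/- mice and 1.40 to 2.58 times S100a8 in the saline-treated WT mice. It was 1.72 to 2.46 times S100a8 in the Ang II-treated WT mice and 1.27 to 2.33 times S100a8 in the Ang II-treated Plod1-/- mice. The geometric means of this ratio, 2.05 and 1.83, did not differ past the test (log2 difference -0.17, two-sided exact permutation test, p = 0.421, Benjamini-Hochberg adjusted p = 0.505 over the 6 ratios computed among the 8 genes). The genes lie 22596 bases apart on chromosome 3 of GRCm38 on opposite strands, S100a8 at 90668978 to 90670035 on the plus strand and S100a9 at 90692632 to 90695721 on the minus strand.

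The promoters of this pair are shown because the genes lie near each other. They are 300 bases from RefSeq (GRCm38.p6), from 250 bases before to 50 bases after the annotated start, printed 5′ to 3′ on the strand of the gene. Capitals mark TATAAA, the TATA box core, on the gene strand, and GAGGAA or its complement TTCCTC, the core bound by PU.1, a factor of myeloid cells. The S100a8 window is chr3:90668821-90669120 on the plus strand and the S100a9 window chr3:90695672-90695971 on the minus strand.
S100a8: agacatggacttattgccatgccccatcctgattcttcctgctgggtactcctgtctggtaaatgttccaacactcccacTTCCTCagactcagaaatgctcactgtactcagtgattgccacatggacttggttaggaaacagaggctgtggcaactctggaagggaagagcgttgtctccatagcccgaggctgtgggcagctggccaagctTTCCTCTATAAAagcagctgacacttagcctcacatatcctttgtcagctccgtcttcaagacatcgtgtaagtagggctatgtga
S100a9: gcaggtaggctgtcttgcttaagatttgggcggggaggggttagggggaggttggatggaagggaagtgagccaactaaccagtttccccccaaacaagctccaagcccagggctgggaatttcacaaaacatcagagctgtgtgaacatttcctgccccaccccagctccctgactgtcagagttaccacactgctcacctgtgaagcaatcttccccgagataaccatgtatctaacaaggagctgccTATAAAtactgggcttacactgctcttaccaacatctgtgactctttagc
In S100a8 the TATA core begins at base -30 from the RefSeq start. It follows directly after a PU.1 core at base -36, with no shared base. This RefSeq start lies downstream of base 90668978, the start of S100a8 given above from another annotation. A second PU.1 core of S100a8 begins at base -170. In S100a9 the TATA core begins at base 1, the annotated start itself, and no PU.1 core was in the window.

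Both surface receptors for soluble signals, Csf3r and Cxcr2, followed S100a8 and S100a9 in direction and were lower in level. Csf3r was 0.36, 0.373, 0.623, 0.291 and 0.306 FPKM in saline-treated Plod1-/- mice and 4.28, 39.0, 65.5, 59.9 and 23.9 FPKM in Ang II-treated Plod1-/- mice. It was 0.572, 0.0819, 0.388, 0.165 and 1.82 FPKM in saline-treated WT mice and 7.71, 0.855, 0.947, 0.57 and 2.41 FPKM in Ang II-treated WT mice. Ang II-treated Plod1-/- replicate 1 was low for Csf3r and lay below Ang II-treated WT replicate 1, while the other 4 Ang II-treated Plod1-/- mice lay above all WT mice.

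Cxcr2 was listed at 0, 0, 0.0875, 0.092 and 0.0117 FPKM in saline-treated Plod1-/- mice and was 1.48, 6.80, 14.9, 15.6 and 7.99 FPKM in Ang II-treated Plod1-/- mice. It was 0.119, 0.0121, 0.0726, 0.0244 and 0.733 FPKM in saline-treated WT mice and 1.32, 0.186, 0.164, 0.114 and 0.412 FPKM in Ang II-treated WT mice. No mouse of the other 3 groups reached the lowest Ang II-treated Plod1-/- mouse, and the highest WT mouse, Ang II-treated replicate 1, came close to it.

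Retnlg followed the same order. It was 0.115, 0.277, 0.188, 0.0577 and 0.117 FPKM in saline-treated Plod1-/- mice and 17.0, 10.7, 17.1, 40.8 and 36.8 FPKM in Ang II-treated Plod1-/- mice. It was 0.715, 0.365, 0.606, 0.306 and 9.93 FPKM in saline-treated WT mice and 26.6, 1.52, 0.379, 0.917 and 5.33 FPKM in Ang II-treated WT mice. Ang II-treated WT replicate 1 lay above 3 of the 5 Ang II-treated Plod1-/- mice for Retnlg, and saline-treated WT replicate 5 lay above 4 of the 5 Ang II-treated WT mice.

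Clec4d, which encodes the macrophage C-type lectin and binds glycolipids of mycobacteria together with its neighbour Clec4e, showed no such rise from saline to Ang II in most WT mice. It was 0.884, 3.67, 2.47, 5.54 and 1.96 FPKM in saline-treated WT mice and 16.5, 1.38, 1.03, 0.85 and 1.59 FPKM in Ang II-treated WT mice. Without replicate 1, the Ang II-treated WT mice lay within or below the range of the saline-treated WT mice. Clec4d was 0.395, 1.07, 1.24, 0.351 and 1.52 FPKM in saline-treated Plod1-/- mice and 12.9, 42.4, 79.7, 97.1 and 36.3 FPKM in Ang II-treated Plod1-/- mice.

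Clec4e, which encodes Mincle, a receptor for cord factor and for a nuclear protein released by dying cells, had the lowest mean level of the 8 genes in Ang II-treated Plod1-/- mice. It was 0.689, 1.18, 3.62, 2.40 and 2.46 FPKM there and between 0.0153 and 0.061 FPKM in saline-treated Plod1-/- mice. It was 1.65, 0.0214, 0, 0.0281 and 0.342 FPKM in Ang II-treated WT mice and at most 0.179 FPKM in saline-treated WT mice. Again Ang II-treated WT replicate 1 was the only WT mouse within the range of the Ang II-treated Plod1-/- mice.

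Trem1, which encodes a receptor that pairs with the adaptor DAP12, was 1.40, 3.51, 11.3, 6.59 and 4.69 FPKM in Ang II-treated Plod1-/- mice. In the other groups it was at most 0.0523 FPKM in saline-treated WT, 0.152 FPKM in saline-treated Plod1-/- and 0.43 FPKM in Ang II-treated WT mice. No mouse outside the Ang II-treated Plod1-/- group reached the lowest mouse of that group. An annotated pseudogene overlaps Trem1 antisense to it, and without strand in the libraries the reads of the pair could not be separated.

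Cxcr2, Csf3r and Trem1 lie on chromosome 1 (Cxcr2, 74153989 to 74161246), chromosome 4 (Csf3r, 126024550 to 126044440) and chromosome 17 (Trem1, 48232768 to 48246924) of GRCm38, all on the plus strand. Retnlg lies on chromosome 16 at 48872621 to 48874496, also on the plus strand. Clec4d (123262111 to 123275265, plus strand) and Clec4e (123281789 to 123289870, minus strand) lie 6523 bases apart on chromosome 6. Their promoters are shown because they form the second pair of neighbours, with the same marks in capitals. The Clec4d window is chr6:123261857-123262156 on the plus strand and the Clec4e window chr6:123289822-123290121 on the minus strand.
Clec4d: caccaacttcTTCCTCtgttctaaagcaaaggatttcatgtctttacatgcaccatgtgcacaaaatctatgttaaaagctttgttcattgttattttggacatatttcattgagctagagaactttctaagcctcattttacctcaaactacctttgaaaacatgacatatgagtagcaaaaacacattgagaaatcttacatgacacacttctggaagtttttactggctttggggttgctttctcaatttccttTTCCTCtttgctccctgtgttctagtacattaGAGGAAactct
Clec4e: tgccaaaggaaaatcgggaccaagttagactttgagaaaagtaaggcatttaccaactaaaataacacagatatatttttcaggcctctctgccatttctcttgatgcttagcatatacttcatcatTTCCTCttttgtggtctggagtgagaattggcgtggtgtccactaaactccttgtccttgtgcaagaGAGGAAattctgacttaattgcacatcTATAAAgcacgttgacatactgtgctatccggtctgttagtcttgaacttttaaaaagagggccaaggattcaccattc
Clec4e holds a TATA core at base -29 and PU.1 cores at bases -123 and -56. Clec4d holds 3 PU.1 cores, at bases -240, 8 and 40, and no TATA core on the gene strand.

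Of the 8 promoters, 6 held a PU.1 core on either strand, against 28.3% of 32851 RefSeq promoters of the same length. The TATA core was on the gene strand of 3 promoters, against 8.32% of all, and in 2 of these, S100a8 and Clec4e, it began 40 to 20 bases before the start, against 1.99% of all. TTGCNNAA, the core of C/EBP factors, was in 3 promoters on either strand (S100a9, Retnlg and Clec4e), against 10.8% of all. TGANTCA, the AP-1 site, was in none of these windows on either strand, against 7.81% of all. These matches describe letters and are not measured binding sites.

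**Figure D1:**
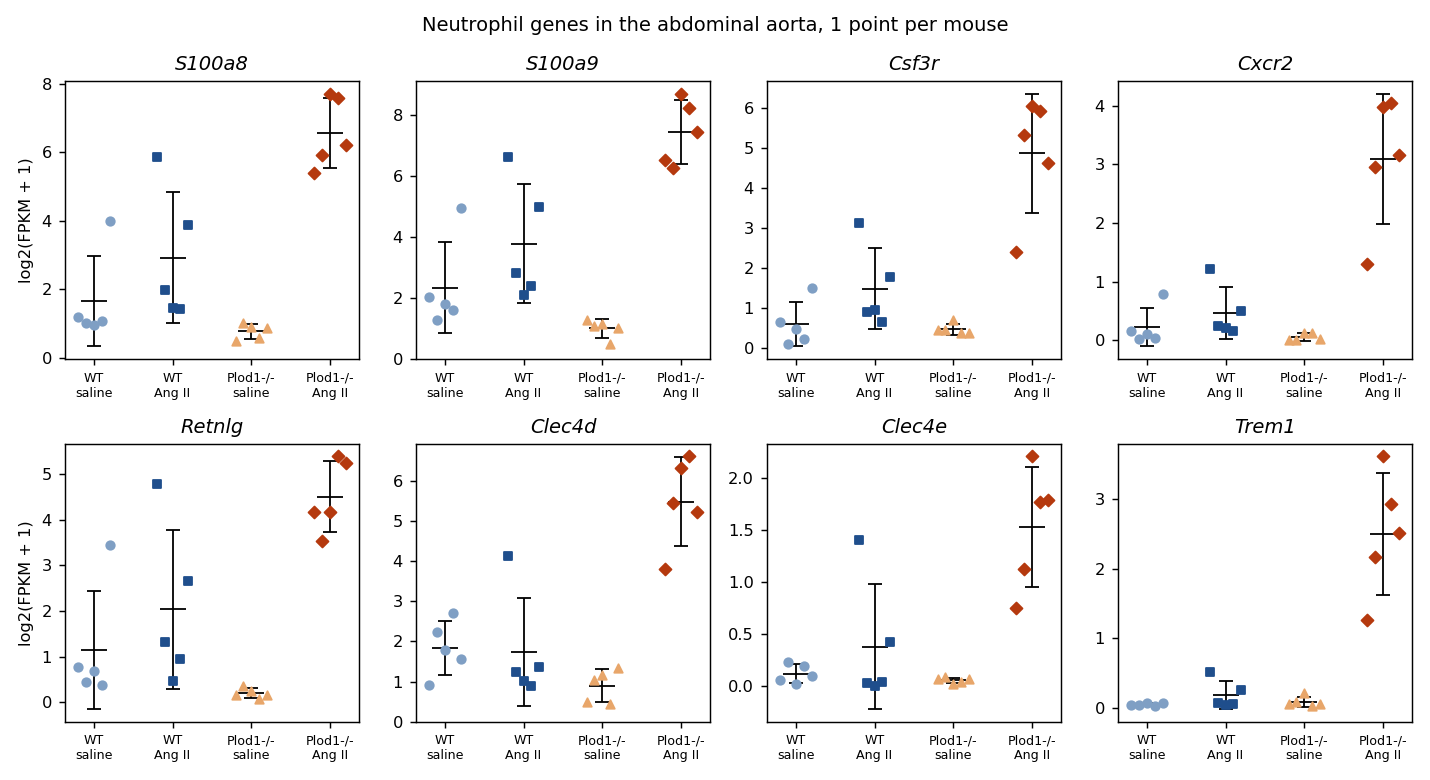
Levels of the 8 genes on the log2(FPKM + 1) scale, 1 point per mouse, with the mean and SD of each group of 5 mice. The Ang II-treated Plod1-/- mice are highest by the mean in every panel, and 1 Ang II-treated WT mouse (replicate 1) reaches their range for 6 of the 8 genes.

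By the mean FPKM, 7 of the 8 genes had the order Ang II-treated Plod1-/-, Ang II-treated WT, saline-treated WT, saline-treated Plod1-/-, from high to low. Trem1 had both saline-treated groups exchanged, at levels of at most 0.152 FPKM. By the median, 5 genes kept the first order. In Clec4d and Clec4e the median of the saline-treated WT mice was above that of the Ang II-treated WT mice, 2.47 against 1.38 FPKM for Clec4d and 0.0711 against 0.0281 FPKM for Clec4e. The following comparisons say which neighbours in this order differed beyond the spread between mice.

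The question of the first comparison was what Ang II did in mice that lack LH1. The tests were two-sided limma fits on log2(FPKM + 1), where low genes show smaller changes than on the FPKM scale. A gene was tested if 5 or more of the 10 mice reached 1 FPKM, and a gene was called where the Benjamini-Hochberg adjusted p-value over all genes tested was below 0.05 and the log2 fold change exceeded 1 in size. Of the 8 genes, 7 passed this filter and were called higher under Ang II, where 8.38% of 12333 genes tested were called higher. Csf3r, Cxcr2, Retnlg and Trem1 reached 1 FPKM in no saline-treated Plod1-/- mouse, so they could pass only through the group where they were high. S100a8, S100a9 and Clec4d reached it in 1, 4 and 3 saline-treated Plod1-/- mice, too few to pass without the Ang II-treated mice. The count itself is therefore no support. With no filter all 8 were called, where 3.16% of 38919 genes were.

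S100a9 had the largest log2 fold change of all 12333 genes tested in Plod1-/- mice, 6.43 ± 0.43 (SE, limma adjusted p = 1.85e-05). S100a8 rose by 5.80 ± 0.42 on the log2 scale (SE, limma adjusted p = 2.14e-05). Clec4d rose by 4.59 ± 0.47 (SE) and Csf3r by 4.40 ± 0.59 (SE). Retnlg rose by 4.30 ± 0.31 (SE), Cxcr2 by 3.04 ± 0.44 (SE) and Trem1 by 2.42 ± 0.35 (SE). The largest limma adjusted p of these 7 genes was 0.00041, for Trem1. Clec4e reached 1 FPKM in 4 of the 10 mice, 1 fewer than the filter asks, and its mean log2(FPKM + 1) was 1.47 higher under Ang II (two-sided exact permutation p = 0.00794, which 5 against 5 mice cannot go below). The groups did not overlap in the 7 genes tested, as in 14.2% of all genes tested, nor in Clec4e. Without both libraries with Xist RNA the 7 log2 fold changes lay between 2.72 for Trem1 and 6.66 for S100a9, and all 7 were called.

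The same question in WT mice had another answer. S100a8, S100a9 and Clec4d passed the filter, and none was called, where 8.66% of 11994 genes tested were called in either direction and 6.38% higher. With no filter none of the 8 was called, where 1.94% of 40228 genes were called higher. The log2 fold change of S100a9 was 1.45 ± 0.92 (SE, limma adjusted p = 0.218) and that of S100a8 1.27 ± 0.87 (SE, limma adjusted p = 0.255). At an unadjusted threshold of 0.05 none of the 3 passed either, with p from 0.142 for S100a9 to 0.852 for Clec4d. Clec4d was at -0.11 ± 0.57 (SE, limma adjusted p = 0.887). The 5 genes below the filter had differences in mean log2(FPKM + 1) between 0.14 (Trem1) and 0.89 (Csf3r), with exact permutation p from 0.119 to 0.5. The groups overlapped in all 8 genes, and 10.4% of the genes tested were higher without overlap. Without Ang II-treated WT replicate 1 the log2 fold change of S100a9 was 0.74 ± 0.77 (SE) and that of S100a8 0.53 ± 0.68 (SE). Without saline-treated WT replicate 5 they were larger, with 1.86 ± 0.80 (SE) for S100a8, and neither was called (limma adjusted p = 0.0714 for S100a9 and 0.095 for S100a8).

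Between the Ang II-treated genotypes, all 8 genes passed the filter and were called higher in Plod1-/- mice, where 7.45% of 12356 genes tested were called higher. Trem1 passed through the Plod1-/- mice alone. Csf3r, Cxcr2, Retnlg, Clec4d and Clec4e reached 1 FPKM in 2, 1, 3, 4 and 1 WT mice, too few to pass without Plod1-/- mice. The count is therefore no support. Clec4d was higher by 3.75 ± 0.67 on the log2 scale (SE, limma adjusted p = 0.0041), with S100a9 and S100a8 higher by 3.64 ± 0.85 and 3.64 ± 0.84 (SE). Csf3r was higher by 3.39 ± 0.69 (SE), Cxcr2 by 2.63 ± 0.46 (SE) and Trem1 by 2.31 ± 0.35 (SE, limma adjusted p = 0.00214, the smallest of the 8). Retnlg was higher by 2.47 ± 0.73 (SE, limma adjusted p = 0.0274) and Clec4e by 1.15 ± 0.33 (SE, limma adjusted p = 0.0235). Retnlg and Clec4e lost the call with no filter (limma adjusted p = 0.0793 and 0.0714), which left 6 of the 8 called where 2.14% of 38986 genes were.

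In this comparison the groups did not overlap for Cxcr2 and Trem1, as in 10.4% of the genes tested. In the other 6 genes the overlap came from Ang II-treated WT replicate 1, since the other 4 Ang II-treated WT mice lay below every Ang II-treated Plod1-/- mouse for all 8 genes. Without that library the 8 log2 fold changes lay between 1.41 for Clec4e and 4.38 for S100a8, and all 8 were called. Leaving out 1 other library ended the call of Retnlg in 6 cases and of Clec4e in 5. The left-out libraries were Ang II-treated WT replicates 2 and 3 and Ang II-treated Plod1-/- replicates 3, 4 and 5 for both genes, and for Retnlg also Ang II-treated WT replicate 4. The adjusted p-values without them were at most 0.07 for Retnlg and 0.063 for Clec4e.

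Between the saline-treated genotypes, S100a8, S100a9 and Clec4d passed the filter and none was called, where 0.767% of 11999 genes tested were called in either direction and 0.408% lower in Plod1-/- mice. S100a9 was at -1.33 ± 0.58 on the log2 scale (SE, limma adjusted p = 0.17), with Clec4d at -0.95 ± 0.31 (SE, limma adjusted p = 0.0832) and S100a8 at -0.88 ± 0.52 (SE, limma adjusted p = 0.29). Without adjustment, the two-sided exact permutation p was 0.00794 for S100a9, 0.0238 for S100a8 and 0.0397 for Clec4d, and limma passed S100a9 (p = 0.0429) and Clec4d (p = 0.0106) at 0.05. S100a9 did not overlap between the groups, with every Plod1-/- mouse below every WT mouse, as in 5.3% of the genes tested. The margin was very small, with the highest Plod1-/- mouse at 1.411 FPKM and the lowest WT mouse at 1.416 FPKM. Retnlg, below the filter, did not overlap either (0.306 to 9.93 FPKM in WT and 0.0577 to 0.277 FPKM in Plod1-/- mice, exact permutation p = 0.00794). Without saline-treated WT replicate 5 the log2 fold change of S100a9 was -0.68 ± 0.19 (SE, limma adjusted p = 0.0602). Without saline-treated WT replicate 1 that of Clec4d was -1.18 ± 0.26 (SE, limma adjusted p = 0.0382), and Clec4d was then called.

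**Figure D2:**
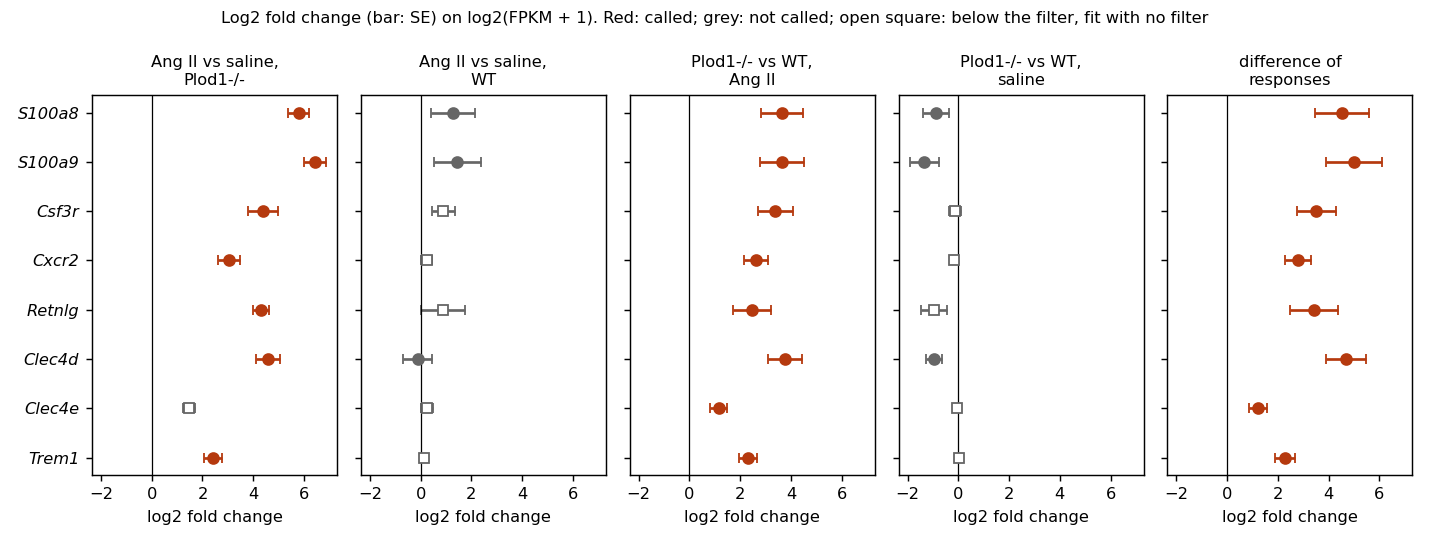
Log2 fold change of each gene in the 5 comparisons, with its SE as the bar, on the log2(FPKM + 1) scale. Red points passed both thresholds, grey points did not, and open squares are genes below the filter, taken from the fit with no filter. Red points are 7 for Ang II against saline in Plod1-/- mice, where Clec4e is an open square, and 8 each for the Ang II-treated genotypes and for the difference of responses, and none in the other 2 panels.

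The difference between the responses to Ang II in the 2 genotypes was tested as an interaction in 1 fit of all 20 mice. All 8 genes passed the filter and were called, with a larger response in Plod1-/- mice, where 9.69% of 13263 genes tested were called in that direction. Trem1 reached 1 FPKM in the Ang II-treated Plod1-/- mice alone and passed only through them. Csf3r, Cxcr2, Retnlg and Clec4e also reached it in too few other mice to pass without that group. The count is therefore no support. The difference of log2 fold changes was 4.98 ± 1.10 (SE, limma adjusted p = 0.00229) for S100a9, 4.70 ± 0.79 (SE) for Clec4d and 4.53 ± 1.05 (SE) for S100a8. It was 3.51 ± 0.78 (SE) for Csf3r, 3.42 ± 0.95 (SE) for Retnlg, 2.80 ± 0.52 (SE) for Cxcr2 and 2.28 ± 0.38 (SE) for Trem1. For Clec4e it was smallest, 1.21 ± 0.36 (SE, limma adjusted p = 0.0133). With no filter all 8 were called, where 2.97% of 43086 genes were, and without both libraries with Xist RNA all 8 were called.

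Proportions among the 8 genes within a mouse were compared between the Ang II-treated genotypes. Of 6 ratios, 1 passed the test. Trem1 per S100a9 was 0.0152, 0.0463, 0.0271, 0.0222 and 0.0273 in the Ang II-treated Plod1-/- mice and 0.00436, 0.00774, 0.00774, 0.0083 and 0.00621 in the Ang II-treated WT mice. The geometric means differed 3.86-fold (exact permutation p = 0.00794, Benjamini-Hochberg adjusted p = 0.0476), with no overlap and with Trem1 at most 0.43 FPKM in the WT mice. Under saline this ratio was 0.0249 to 0.123 in Plod1-/- and 0.00175 to 0.0199 in WT mice. A high ratio was therefore not particular to Ang II-treated Plod1-/- mice, though Trem1 was at most 0.152 FPKM under saline. The ratios of Csf3r, Cxcr2, Retnlg and Clec4d to S100a9 differed 1.26- to 1.76-fold, with adjusted p from 0.444 to 0.627. Csf3r per S100a9 was lowest in Ang II-treated Plod1-/- replicate 1, 0.0466, and highest in replicate 2, 0.514. Replicate 1 was the lowest of the Ang II-treated Plod1-/- mice for 6 of the 8 genes, and it is 1 of the 2 libraries with Xist RNA.

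Lists of related genes were set beside the 8 genes. Over every gene of a list, whether or not it passed the filter, the median difference in mean log2(FPKM + 1) between Ang II and saline in Plod1-/- mice was 0.70 for granule genes, 2.43 for chemoattractants, 2.71 for receptors and 2.12 for adaptors. It was 1.86 for C-type lectin and TREM genes, 0.14 for S100 and resistin genes and 1.31 for transcription factors, against 0.004 over all 43422 genes and 4.35 over the 8 genes. Between the Ang II-treated genotypes the medians were 0.43, 2.36, 1.78, 1.65, 1.56, -0.009 and 0.49 in that order, against 0.008 over all genes and 3.01 over the 8 genes. In the counts that follow, some genes were below 1 FPKM in every mouse of the lower group, saline-treated Plod1-/- or Ang II-treated WT. Such a gene could be tested only through the group in which it was high. The counts therefore describe the genes and support nothing. Of all genes tested, 8.38% of 12333 were called higher under Ang II in Plod1-/- mice. Between the Ang II-treated genotypes, 7.45% of 12356 were called higher in Plod1-/- mice.

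Granule genes, listed apart from the 8 genes, were less uniform. In Plod1-/- mice 3 of the 12 were tested and called higher under Ang II: Hp (haptoglobin, which binds free hemoglobin) by 5.38 ± 0.79, Lcn2 (which binds iron carriers of bacteria) by 3.88 ± 0.39 and Mmp9 (gelatinase B) by 3.50 ± 0.61 on the log2 scale (SE). Of 5 tested between the Ang II-treated genotypes 1 was called, Mmp9, higher in Plod1-/- mice by 2.48 ± 0.66 (SE, limma adjusted p = 0.0185). In WT mice Hp was called higher under Ang II by 4.04 ± 0.85 (SE). Hp is also made by adipocytes, and summed adipocyte markers were 599.2 to 3662 FPKM in the Ang II-treated and 70.3 to 373.8 FPKM in the saline-treated WT mice. Their part in the level of Hp was not tested.

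Of the 12 granule genes, 6 were above the range of the Ang II-treated Plod1-/- mice in Ang II-treated WT replicate 1, a mouse singled out after its values were seen, and 6 were within that range. Ngp (neutrophilic granule protein) was 18.4 FPKM in that mouse and 0.377 to 0.793 FPKM in the Ang II-treated Plod1-/- mice. Camp (cathelicidin) was 2.82 FPKM against at most 0.298 FPKM, Ltf (lactoferrin) 2.59 FPKM against at most 0.71 FPKM and Lcn2 218.1 FPKM against at most 71.1 FPKM. S100a9 was 98.6 FPKM in that mouse, within the range of the Ang II-treated Plod1-/- mice. Elane and Ctsg were above the range as well, at 1.61 and 0.809 FPKM. Within the range were Mpo, Prtn3, Mmp8, Mmp9, Hp and Padi4, with Mmp9 at 12.6 FPKM in that mouse and 4.65 to 72.4 FPKM in the Ang II-treated Plod1-/- mice.

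**Figure D3:**
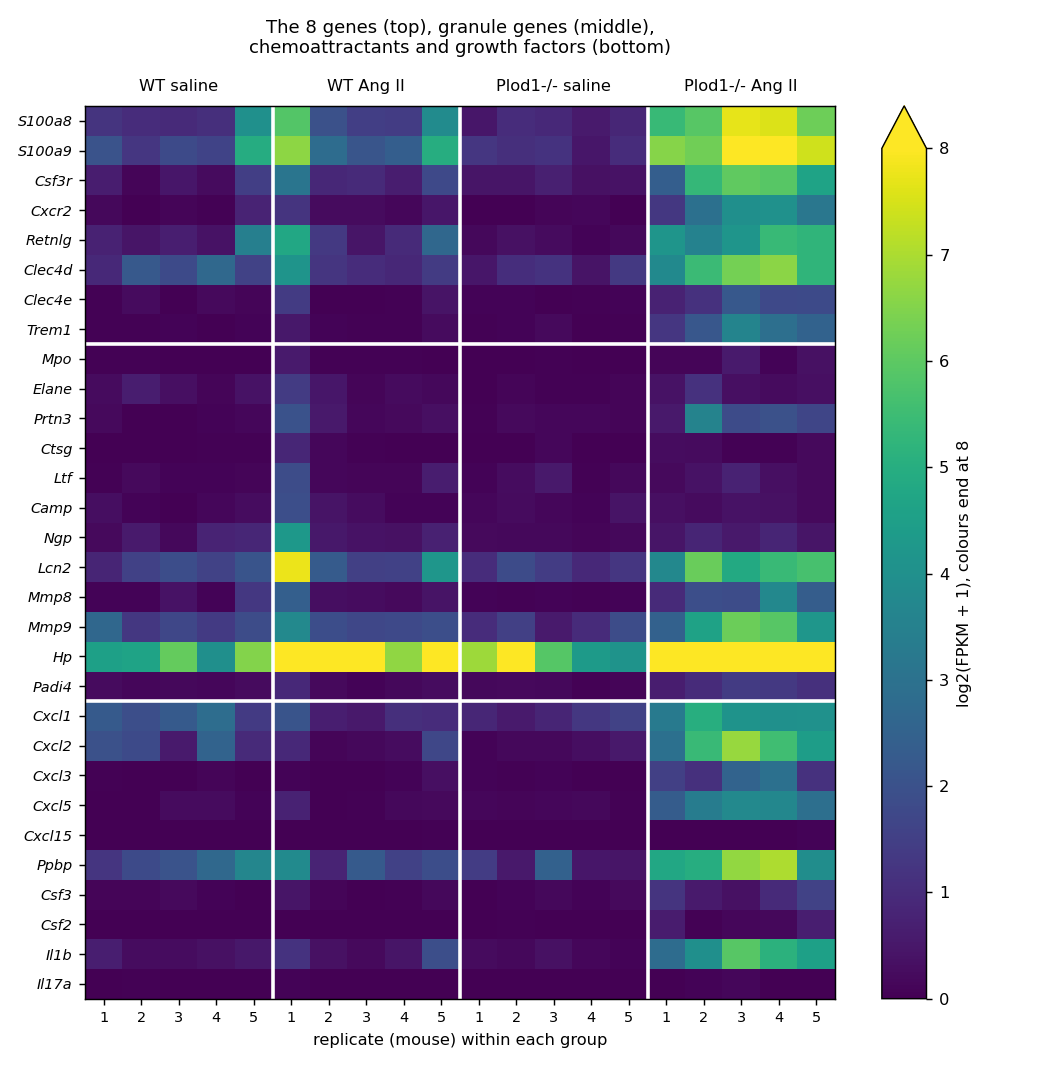
Levels on the log2(FPKM + 1) scale of the 8 genes (top), 12 granule genes (middle) and 10 chemoattractants and growth factors (bottom), with 1 column per mouse and white lines between groups and lists. Ngp, Camp and Ltf are brightest in Ang II-treated WT replicate 1, while Cxcl2, Ppbp and Il1b are brightest in the Ang II-treated Plod1-/- mice.

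Of 10 chemoattractants and growth factors, 6 were tested in Plod1-/- mice and all 6 were called higher under Ang II, of which 4 reached 1 FPKM in no saline-treated mouse. The changes were led by Cxcl2 (4.77 ± 0.56), Ppbp (4.41 ± 0.62) and Il1b (4.29 ± 0.46, log2 fold change and SE). Cxcl2, a ligand of Cxcr2, was 6.73 to 107.9 FPKM in Ang II-treated Plod1-/- mice and at most 0.466 FPKM in saline-treated Plod1-/- mice. All 6 were also called higher in the Ang II-treated Plod1-/- than in the Ang II-treated WT mice, with Cxcl2 higher by 4.39 ± 0.61 (SE). Cxcl3 and Cxcl5 were tested there only through the Plod1-/- mice, since they were at most 0.266 and 0.712 FPKM in Ang II-treated WT mice. Cxcl1, another ligand of Cxcr2, fell in WT mice under Ang II by 1.06 on the log2 scale (SE 0.31, limma adjusted p = 0.0234). Under saline it was lower in Plod1-/- than in WT mice, at -1.11 ± 0.27 on the log2 scale (SE, limma adjusted p = 0.0371). Csf3, the ligand of Csf3r, was below the filter and at most 1.96 FPKM in Ang II-treated Plod1-/- mice and 0.365 FPKM elsewhere. Ppbp is also a platelet gene.

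Of 17 other receptors and adhesion molecules of neutrophils, 13 were tested in Plod1-/- mice and all 13 were called higher under Ang II, of which 7 reached 1 FPKM in no saline-treated mouse. The changes were largest for Il1r2 (a decoy receptor for interleukin-1) at 4.49 ± 0.32, Fcgr3 at 3.65 ± 0.52 and C5ar1 (the receptor of complement fragment C5a) at 3.59 ± 0.50 (log2 fold change and SE). Fcgr3 and C5ar1 averaged 11.2 and 9.81 FPKM in saline-treated WT mice, where Cxcr2 averaged 0.192 FPKM. The part of other cells in the levels of this list was not tested. Under Ang II 12 of 14 tested were called higher in Plod1-/- than in WT mice, and Il1r2 led with 3.83 ± 0.48 (SE). In WT mice 1 of 6 was called under Ang II, Cxcr4, higher by 1.23 ± 0.19 (SE).

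Clec4e and Trem1 reach the cell interior through adaptors, which were measured as a list of 15 adaptors and kinases. In Plod1-/- mice 8 of 14 tested were called higher under Ang II and none lower (1 of the 14 reached 1 FPKM in no saline-treated mouse), led by Tyrobp (DAP12, the adaptor of Trem1) at 4.22 ± 0.47 and by Socs3 at 3.60 ± 0.37 and Fcer1g (the Fc receptor gamma chain, the adaptor of Clec4e) at 3.55 ± 0.45 (log2 fold change and SE). Tyrobp was 69.7 to 401.6 FPKM in Ang II-treated Plod1-/- mice, above Trem1 by a wide margin, and 5.57 to 19.9 FPKM in saline-treated Plod1-/- mice, where Trem1 was at most 0.152 FPKM. Under Ang II 8 of 14 were called higher in Plod1-/- than in WT mice, led by Socs3 at 3.54 ± 0.55 (SE). In WT mice none of 11 was called under Ang II.

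Of 13 relatives of Clec4d, Clec4e and Trem1 among the C-type lectin and TREM genes, 6 were below the filter in Plod1-/- mice. The other 7 were called higher under Ang II, of which 3 reached 1 FPKM in no saline-treated mouse, with Clec4n (Dectin-2) at 4.89 ± 0.42, Trem2 at 3.88 ± 0.44 and Clec4a3 at 3.03 ± 0.47 (log2 fold change and SE). All 9 tested between the Ang II-treated genotypes were called higher in Plod1-/- mice, and none of 4 was called in WT mice under Ang II. Trem2 and Clec4n are expressed mainly by macrophages and dendritic cells.

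Of 13 S100 and resistin genes, the relatives of S100a8, S100a9 and Retnlg, 9 were tested in Plod1-/- mice, of which 2 were called higher under Ang II, Retn (1.66 ± 0.57) and S100a10 (1.53 ± 0.15), and 1 lower, Retnla (-3.18 ± 0.41, log2 fold change and SE). Retnla was 13.2 to 47.7 FPKM in saline-treated Plod1-/- mice and 0.882 to 6.11 FPKM in Ang II-treated Plod1-/- mice, the opposite direction to Retnlg. Between the Ang II-treated genotypes 2 were called higher in Plod1-/- mice, S100a10 and S100a11, and 2 lower, Retnla (-2.37 ± 0.48, SE) and S100b (-1.64 ± 0.39, SE). In WT mice 3 of 9 were called higher under Ang II, Retn, S100b and S100a1.

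Of 8 myeloid transcription factors, 5 were tested in Plod1-/- mice (1 of them at 1 FPKM in no saline-treated mouse) and 4 were called higher under Ang II, with Spi1 (which encodes PU.1) at 3.18 ± 0.43, Cebpb at 2.84 ± 0.40 and Cebpa at 2.09 ± 0.76 (log2 fold change and SE). Between the Ang II-treated genotypes 2 of 5 were called higher, Spi1 by 2.21 ± 0.54 and Runx1 by 1.87 ± 0.30 (SE). In WT mice 1 of 5 was called under Ang II, Cebpa, higher by 3.81 ± 0.61 (SE), in the group in which adipocyte markers were also high.

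Markers of other cells moved with the 8 genes. Summed macrophage markers (10 genes) were 1124 to 5893 FPKM in Ang II-treated Plod1-/- mice, 159.7 to 587.9 FPKM in saline-treated Plod1-/- mice, 429.4 to 2272 FPKM in Ang II-treated WT and 306.7 to 500.9 FPKM in saline-treated WT mice. Lyz2 was the largest single part of this sum in Ang II-treated Plod1-/- mice, at 500.9 to 3102 FPKM. Of the macrophage markers, 9 of 10 were called higher under Ang II in Plod1-/- mice and 8 of 10 between the Ang II-treated genotypes. In WT mice 1 macrophage marker was called higher under Ang II (Lyz2) and 1 lower (Mertk). The highest value of the WT mice belonged to Ang II-treated WT replicate 1, the mouse with the highest level of all 8 genes in its group. Summed inflammatory monocyte markers (6 genes) were 42.9 to 349.2 FPKM in Ang II-treated Plod1-/- mice and 13.8 to 24.8 FPKM in saline-treated Plod1-/- mice, and 4 of 5 tested were called higher, with 3 of the 5 at 1 FPKM in no saline-treated mouse. The part of macrophages and monocytes in the levels of the 8 genes, Clec4d, Clec4e and Trem1 among them, was not tested.

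Markers of blood also moved. Summed red blood cell markers (6 genes) were 763.6 to 9718 FPKM in Ang II-treated Plod1-/- mice, 60.0 to 1524 FPKM in saline-treated Plod1-/- mice, 184.7 to 666.1 FPKM in Ang II-treated WT and 150.9 to 1444 FPKM in saline-treated WT mice, and 5 of 5 tested were called higher between the Ang II-treated genotypes. Saline-treated WT replicate 5 and saline-treated Plod1-/- replicate 3 had similar values of Hba-a1 (hemoglobin alpha), 565.3 and 601.5 FPKM. S100a8 was 15.1 FPKM in the first of these mice and 0.878 FPKM in the second. Summed platelet markers were 150.0 to 981.5 FPKM in Ang II-treated Plod1-/- mice and 23.6 to 95.7 FPKM in Ang II-treated WT mice, with 3 of 5 called. Most of this sum was Pf4, at 114.9 to 829.4 FPKM in Ang II-treated Plod1-/- mice. Gp9 and Itga2b were not called between the Ang II-treated genotypes (limma adjusted p = 0.053 and 0.0598). Gp9 was 0.533 FPKM in the lowest Ang II-treated Plod1-/- mouse. The part of blood in the vessel or the tissue in these levels was not tested.

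**Figure D4:**
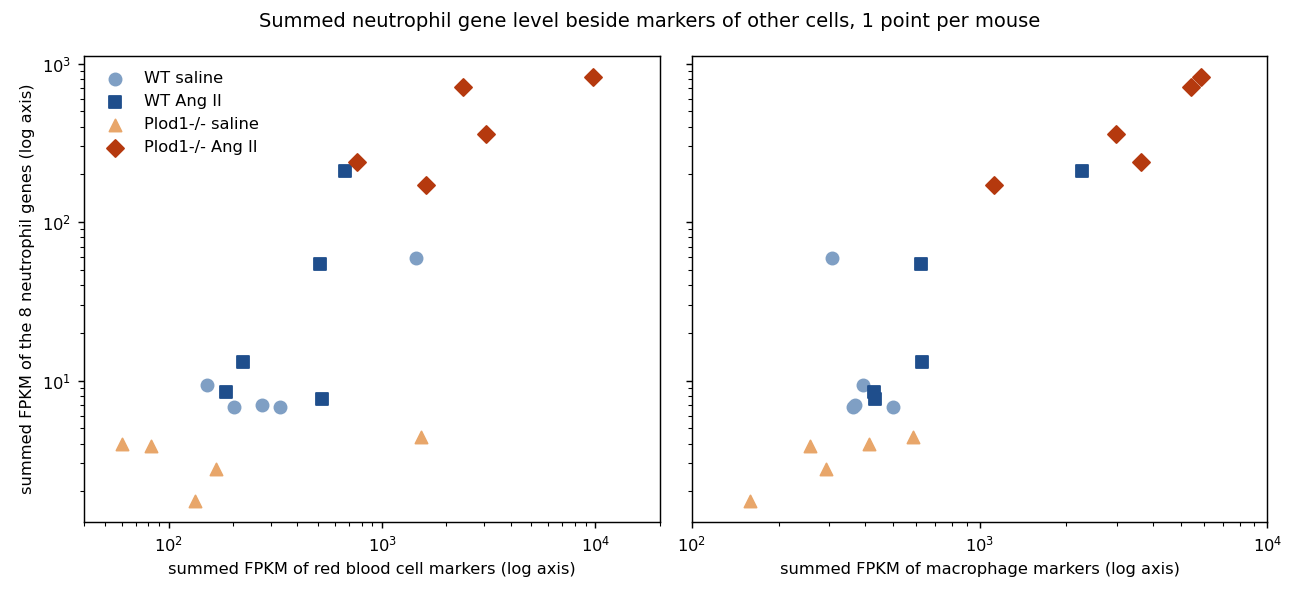
Summed FPKM of the 8 genes against summed FPKM of red blood cell markers (left) and of macrophage markers (right), 1 point per mouse, on log axes. Saline-treated Plod1-/- mice stay between 1.74 and 4.42 FPKM summed over the 8 genes at red blood cell sums from 60.0 to 1524 FPKM, and the Ang II-treated Plod1-/- mice lie between 170.7 and 817.7 FPKM.

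T cell markers summed to at most 5.19 FPKM in any mouse, and none was tested. Eosinophil markers, also below the filter, summed to 0.492 to 7.87 FPKM in Ang II-treated Plod1-/- mice and at most 0.456 FPKM in saline-treated Plod1-/- and 0.628 FPKM in Ang II-treated WT mice. Most of this was Siglecf, at 0.248 to 7.27 FPKM in Ang II-treated Plod1-/- mice. None of 5 mast cell markers was called in any comparison, with sums of 20.7 to 65.6 FPKM in Ang II-treated Plod1-/- and 21.9 to 39.9 FPKM in Ang II-treated WT mice. B cell markers summed to at most 12.2 FPKM and keratinocyte markers to at most 3.4 FPKM. Fibroblast markers were not called in the comparisons of 2 groups, and of 4 endothelial markers 2 were called higher under Ang II in each genotype and none between genotypes. All 6 smooth muscle markers were called lower under Ang II in Plod1-/- mice. Their sum was 16760 FPKM in Ang II-treated Plod1-/- replicate 1, in which 6 of the 8 genes were lowest, and 2297 to 6161 FPKM in the other 4 mice, against 15030 to 20700 FPKM under saline.

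The genes whose pattern was most like that of the 8 genes were found by Spearman's rho over the 20 mice between each gene and the mean z-score of the 8 genes, among 13230 genes that reached 1 FPKM in 5 or more mice. They were Mmp8 (neutrophil collagenase, rho = 0.929), Gpsm3 (a regulator of G-protein signalling, rho = 0.928), Ctla2a (rho = 0.926), Hdc (histidine decarboxylase, rho = 0.923) and Cd33 (a sialic acid-binding receptor of myeloid cells, rho = 0.922). The mice share groups, so rho describes these 20 mice only. Mmp8 was 1.44 FPKM in saline-treated WT replicate 5 and 4.33 FPKM in Ang II-treated WT replicate 1, the mice that stood out for the 8 genes. It was 0.936 to 12.4 FPKM in Ang II-treated Plod1-/- mice and at most 0.0588 FPKM in saline-treated Plod1-/- mice. Ctla2a was 81.7 to 149.2 FPKM in Ang II-treated Plod1-/- mice and did not overlap with Ang II-treated WT mice (6.55 to 62.9 FPKM).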

How the data were processed

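Abdominal aortas of 20 mice gave 1 RNA library each, prepared without keeping strand. The authors deposited FPKM per Ensembl gene and mouse, made with HISAT2, stringtie, cuffquant and cuffnorm, and the submitters' processing notes name HISAT2 2.1.0, Bowtie2 2.2.3, HTSeq 0.6.0 and the mm10 build. Gene IDs were matched to symbols through GENCODE M21 (43226 of 43422).

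Groups came from the labels. Values were log2(FPKM + 1), genes that reached 1 FPKM in 5 or more mice of a comparison were tested with limma 3.58.1 in R 4.3.3 (eBayes with a variance trend), and a call needed both an adjusted p-value (Benjamini-Hochberg) under 0.05 and a log2 fold change over 1 in size. Count-based tests do not apply to FPKM. Exact permutation tests were computed in R and SciPy 1.17.1. The fits were tested on simulated data. The 8 genes and all lists were chosen with earlier results of these data known. From each list the called genes with the largest changes, up to 3, are named, and other named genes were chosen after their values were seen. Alternatives are given with their effect in the closing section. RefSeq promoters were matched by symbol (8 of 8).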

Additional observations from a re-analysis of the deposited data

Results flagged for a closer look

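The response to Ang II differed between the genotypes in all 8 genes, by the interaction test of limma over all genes. Of 13263 genes tested, 9.69% were called in that direction. Trem1, Csf3r, Cxcr2, Retnlg and Clec4e passed the filter only with the Ang II-treated Plod1-/- mice, so the count is no support. The difference of log2 fold changes (Plod1-/- minus WT) was 4.98 for S100a9, 4.70 for Clec4d, 4.53 for S100a8, 3.51 for Csf3r, 3.42 for Retnlg, 2.80 for Cxcr2, 2.28 for Trem1 and 1.21 for Clec4e.

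Single mice lay far from the other 4 of their group in 6 of 32 combinations of gene and group, by Dixon's test on log2(FPKM + 1), which flags about 1 in 20 groups by chance. In saline-treated WT replicate 5 this held for S100a8 (15.1 FPKM), S100a9 (29.9 FPKM), Cxcr2 (0.733 FPKM) and Retnlg (9.93 FPKM), 4 genes of 1 library. Clec4d (16.5 FPKM) stood apart in Ang II-treated WT replicate 1, and Csf3r (0.623 FPKM) in saline-treated Plod1-/- replicate 3.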

How the results depend on the processing

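Of 648 values of the 8 genes under the alternatives, 628 kept their direction and their side of the thresholds, 15 lost a call, 1 gained one and 4 changed direction. The 4 were Clec4d in WT mice under Ang II, never called, at 0.11, 0.012, 0.069 and 0.10 without saline-treated WT replicate 4 and Ang II-treated WT replicates 2, 3 and 4, within a range from -0.71 to 0.11 with 1 mouse left out. All lost calls were Retnlg and Clec4e between the Ang II-treated genotypes. There 8 genes were called, 6 with no filter, 7 with the replicate block, 7 with quantile normalization (Clec4e at 0.97, below the fold threshold) and 6 to 8 with 1 mouse left out. Between the saline-treated genotypes 0 to 1 were called with 1 mouse left out (1, Clec4d, without saline-treated WT replicate 1). In the other comparisons leaving out 1 mouse gave 7 to 7 (Ang II in Plod1-/-), 0 to 0 (Ang II in WT) and 8 to 8 (interaction). Correlations of same-numbered mice ranged from -0.372 to 0.434, highest for replicates 2 and 3 of the Plod1-/- groups (0.434 and 0.398). With 5 mice per group these values cannot decide whether the numbers pair mice. The block changed no call but that of Clec4e (limma adjusted p = 0.0714). Between the Ang II-treated genotypes the all-gene median was 0.12, or -0.03 after quantile normalization, and 920 genes were called higher and 453 lower, or 744 and 612. For the interaction these splits were 1285 and 844, or 1020 and 1095. The 8 genes kept their direction in both. With a mean log2 level in place of the mean z-score, 3 of the 5 most similar genes were shared (Mmp8, Hdc and Gpsm3). A pseudocount of 0.1, a mean filter of 0.5 FPKM, no variance trend, weights per mouse, mitochondrial genes left out, all groups in 1 fit and libraries with Xist RNA left out ended no call. Depth is unknown, so no counting error can be given for the lowest FPKM.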
